A study of Homo sapiens with 4 samples.

Results

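The small heat shock proteins and their co-chaperone BAG3 were followed across HOS and U2-OS cells with and without OGE. They were 8 genes of the 18417 measured: CRYAB, HSPB1, HSPB3, HSPB6, HSPB7, HSPB8, HSPB11 and BAG3, chosen by gene symbol. HSPB11 has the current symbol IFT25 in RefSeq, to which its probe set was matched by gene ID. Each of the 8 genes had 1 probe set, so no choice between probe sets entered their values. The choice was made with these genes' OGE responses and line differences known, so those differences are given as a description, without a test.

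HOS and U2-OS are established human osteosarcoma lines. Each was exposed to OGE at 0 or 600 μg/mL for 24 h, and all cultures were kept in DMEM with serum and antibiotics. RNA from each of these 4 conditions was hybridised to 1 array, which makes 4 arrays with no replicate, so the spread between cultures of a condition is unknown. What OGE stands for is not spelled out in the labels. The series asks how OGE acts on the growth and gene expression of the lines.

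Small heat shock proteins share a conserved crystallin domain, assemble into oligomers and hold unfolding proteins in a soluble state without using ATP. BAG3 links them to the chaperones of the HSP70 family. The BAG3 complex with HSPB8 and HSP70 passes damaged proteins to autophagy. HSPB11 carries the family name but works as a subunit of intraflagellar transport, the traffic inside cilia. In mesenchymal cells HSPB1 and CRYAB also bind actin and intermediate filaments, whereas HSPB3, HSPB6 and HSPB7 are known mainly from muscle.

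HSPB8 and BAG3 were the members higher by at least 2-fold with OGE, HSPB8 in both lines and BAG3 in U2-OS alone. Their RefSeq promoters (GRCh38.p14) are therefore shown with that of HSPB1, a member with a heat shock repeat whose level was not higher. Each run holds the 250 bases before the transcription start, 5′ to 3′ on the gene's strand. The HSPB8 stretch is chr12:119178681-119178930 (+), that of BAG3 chr10:119651130-119651379 (+) and that of HSPB1 chr7:76302423-76302672 (+). Capitals mark the inverted heat shock repeat GAANNTTC in HSPB8 and HSPB1, and the AP-1 motif TGANTCA in BAG3.
HSPB8: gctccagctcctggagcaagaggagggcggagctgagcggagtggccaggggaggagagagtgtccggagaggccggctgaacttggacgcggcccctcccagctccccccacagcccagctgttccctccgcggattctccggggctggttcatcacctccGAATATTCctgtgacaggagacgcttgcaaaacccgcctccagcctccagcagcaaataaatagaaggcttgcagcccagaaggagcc
BAG3: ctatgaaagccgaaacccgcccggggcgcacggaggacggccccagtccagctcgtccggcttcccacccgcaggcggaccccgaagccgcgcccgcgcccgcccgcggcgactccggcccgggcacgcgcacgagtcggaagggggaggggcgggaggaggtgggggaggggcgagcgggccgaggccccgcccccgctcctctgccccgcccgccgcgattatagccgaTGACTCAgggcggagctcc
HSPB1: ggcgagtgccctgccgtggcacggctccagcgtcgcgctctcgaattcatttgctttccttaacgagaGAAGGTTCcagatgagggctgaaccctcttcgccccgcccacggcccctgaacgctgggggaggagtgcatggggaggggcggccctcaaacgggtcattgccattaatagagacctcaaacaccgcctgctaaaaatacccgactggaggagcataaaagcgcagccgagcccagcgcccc
In HSPB8 a further GAANNTTC match began 5 bases past the start and is in capitals in the 30 bases across it, chr12:119178923-119178952 (+).
HSPB8 start: aaggagccagaaGAAGTTTCtaggcgcgcg

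The repeat began 88 bases before the start in HSPB8 and 182 before it in HSPB1. The AP-1 motif began 19 bases before the start in BAG3. Windows of 300 bases, from 250 before to 50 after the start, were searched on both strands for GAANNTTC, TTCNNGAA, the 3-unit heat shock element (which contains both), TGANTCA, the ATF4 composite TTGCATCA, the antioxidant element TGACNNNGC and TATAAA. Of all 35116 RefSeq windows, 6.77% held GAANNTTC, 7.74% TTCNNGAA, 0.490% the longer element, 7.71% TGANTCA, 0.866% TTGCATCA, 13.3% TGACNNNGC and 11.5% TATAAA. None of these motifs was matched in both the HSPB8 and the BAG3 window. HSPB1 also held TGACNNNGC at 26 and 42 bases past the start. Heat shock repeats were also found in members not shown. HSPB6 held TTCNNGAA 210 and GAANNTTC 196 bases before its start, and HSPB3 held TTCNNGAA 242 and the AP-1 motif 71 bases before its start. HSPB3 and HSPB6 also held TGACNNNGC, 180 and 135 bases before the start. TATAAA lay 32, 29 and 28 bases before the start of HSPB3, HSPB6 and HSPB7. Windows were found for 7 of the 8 genes, all but CRYAB. A match describes letters and not a bound site. The lack of a match covers only these exact motifs in these windows, and the part of any motif in the OGE response was not tested.

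Values are log2 expression after RMA, a method that corrects background and normalizes the arrays. The deposited values did not share an identical distribution, since their 25th percentiles ran from 1.93 to 2.04. A further quantile normalization therefore moved some of them. The array medians over 33297 probe sets lay between 3.58 and 3.62 and served as a floor. A difference of at least 1 on the log2 scale, 2-fold, with the higher value at or above the floor, was called higher or lower by size. HSPB1, HSPB8 and BAG3 were at or above the median on all 4 arrays, and HSPB3 and HSPB7 were below it on all 4. HSPB11 reached it on 3 arrays, and HSPB6 and CRYAB on 2. CRYAB did so in U2-OS alone. Over all probe sets, Pearson's r between the untreated and the treated array was 0.980 for HOS and 0.968 for U2-OS.

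**Figure D1:**
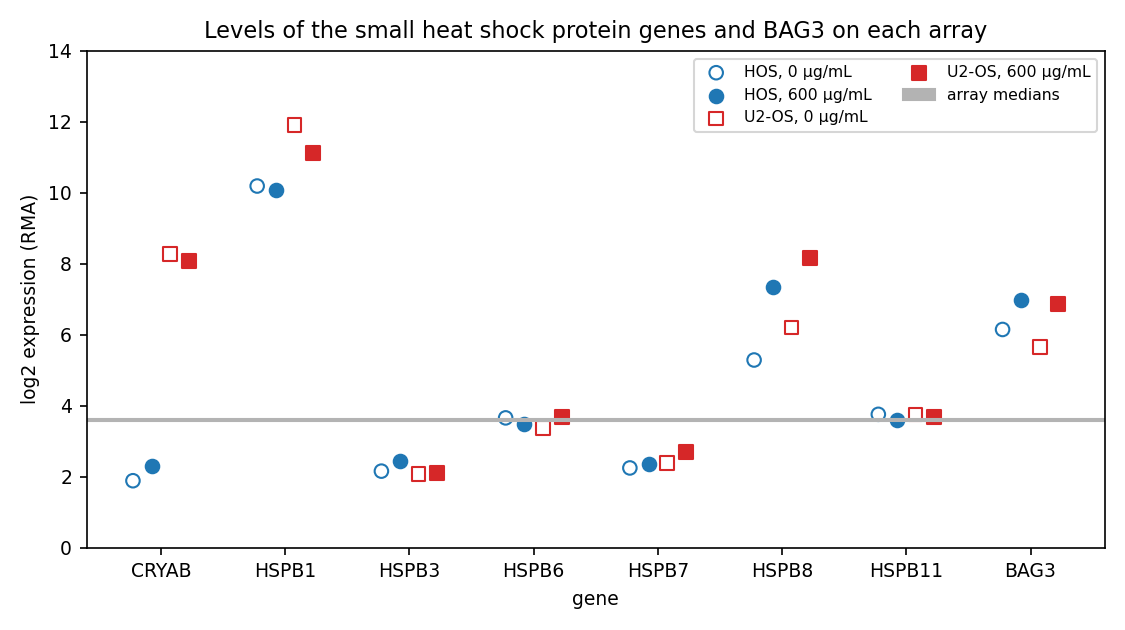
Log2 expression (RMA, vertical axis) of each gene on the 4 arrays, with HOS as circles, U2-OS as squares, open symbols for 0 μg/mL OGE and filled symbols for 600 μg/mL, and the array medians as a grey band. CRYAB is near 2 in HOS and above 8 in U2-OS, the filled symbols of HSPB8 and BAG3 lie above the open ones of the same line, and HSPB3 and HSPB7 lie below the band.

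With OGE, HSPB8 and BAG3 were higher in both lines, HSPB8 past 2-fold in each and BAG3 past it in U2-OS. HSPB8 was at 5.29 in untreated and 7.34 in OGE-treated HOS, a difference of 2.05 (4.14-fold). In U2-OS it was at 6.20 and 8.17, a difference of 1.97 (3.92-fold). Both treated arrays lay above both untreated ones, with a step of 1.14 between untreated U2-OS and treated HOS. The 2 responses differed by 0.08. In RNA from whole cultures, more cells with the gene active and more RNA per cell cannot be told apart. Among genes at the floor, 12 of 11334 had a larger difference than HSPB8 in HOS and 61 of 11506 in U2-OS.

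BAG3, the co-chaperone that pairs with HSPB8, was at 6.15 and 6.98 in HOS, a difference of 0.83 (1.78-fold). In U2-OS it was at 5.66 and 6.87, a difference of 1.21 (2.31-fold). Its mean difference over the lines was 1.02 ± 0.27 (SD, n = 2 lines). The treated arrays again lay above the untreated ones, and the nearest of them, untreated HOS and treated U2-OS, were 0.72 apart. In HOS, 298 of 11334 genes had a larger difference, and in U2-OS 195 of 11506. The HSPB8 difference exceeded that of BAG3 by 1.22 in HOS and 0.76 in U2-OS.

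HSPB1, the most widely expressed small heat shock protein, did not share this pattern. It was at 10.19 and 10.08 in HOS, a difference of -0.11 whose sign turned to 0.06 after quantile normalization. In U2-OS it was at 11.91 and 11.13, a difference of -0.78, which was -0.50 after quantile normalization. Neither was past 2-fold. Relative to HSPB1, HSPB8 changed by 2.16 more in HOS and 2.75 more in U2-OS.

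CRYAB, the alpha-B crystallin, was at 1.89 and 2.30 in HOS, where both values were below the median, and at 8.27 and 8.09 in U2-OS. Its OGE differences of 0.41 and -0.18 were under 2-fold. The muscle genes HSPB3, HSPB6 and HSPB7 had differences from -0.18 to 0.29 in HOS and from 0.02 to 0.31 in U2-OS. HSPB3 ranged from 2.08 to 2.45, HSPB6 from 3.38 to 3.68 and HSPB7 from 2.25 to 2.70 over the 4 arrays. The 0.02 of HSPB3 in U2-OS turned to -0.07 after quantile normalization and -0.08 after cyclic loess. HSPB11 was at 3.76, 3.60, 3.76 and 3.69 in untreated and treated HOS and untreated and treated U2-OS, a range of 0.16. At these levels RMA compresses differences, so small values say little about these 4 genes.

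In HOS, 1 of the 5 members at the floor was higher by size and 0 lower, where 1.70% of all genes at the floor were higher and 2.18% lower. In U2-OS, 2 of 6 were higher and 0 lower, against 2.94% and 7.88% of all genes. HSPB8 was higher in both lines, as were 0.768% of the 10811 genes at the floor in both, and 1.09% of those were lower. The choice of members used these differences, so nothing is read from the counts. The median difference over the members at the floor was -0.11 in HOS and 0.12 in U2-OS, and that over all genes at the floor 0.02 and -0.01. Over all 8 members, those below the floor included, the medians were 0.20 and 0.16, so the sign in HOS depends on the genes below it.

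**Figure D2:**
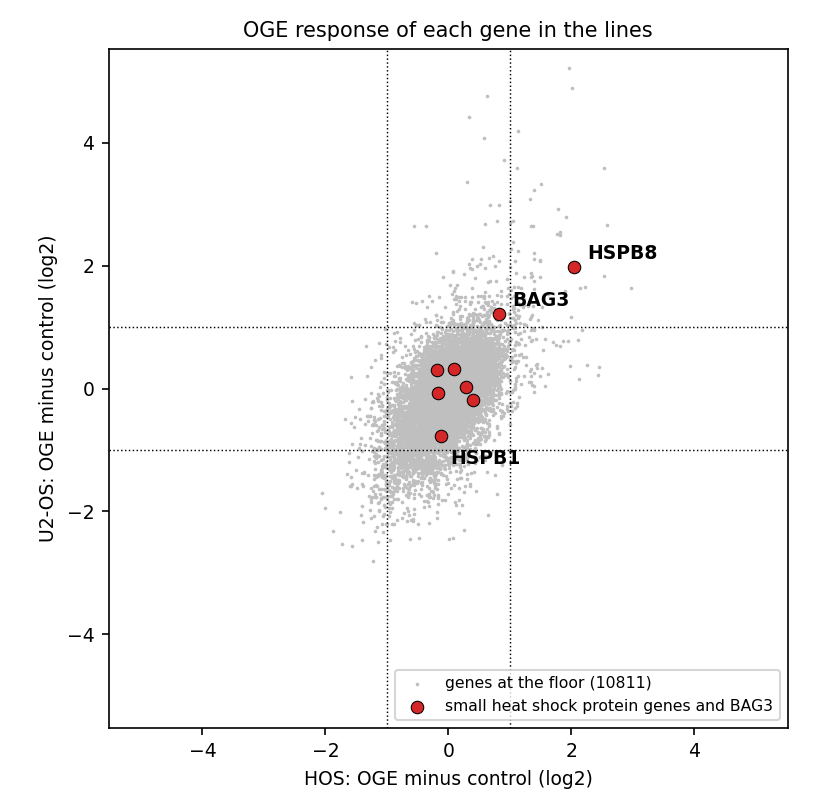
OGE minus control (log2) in HOS on the horizontal axis and in U2-OS on the vertical axis, with 10811 genes at the floor in both lines as grey points, the 8 members as red points whether at the floor or not, and dotted lines at 2-fold. HSPB8 lies past both lines at 2.05 and 1.97, BAG3 at 0.83 and 1.21, and HSPB1 at -0.11 and -0.78.

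Between the lines, CRYAB and HSPB1 were higher in U2-OS whether or not OGE was present. CRYAB differed by 6.38 without OGE (83.3-fold) and 5.79 with it (55.3-fold). Its HOS values were near the 25th percentile of each array (1.98 and 2.03), and CRYAB passed the floor through U2-OS alone. The size of these folds and the place of CRYAB among all genes therefore rest on values near the bottom of the range and are approximate. Taking the values as they stand, 1 of 11605 genes had a larger difference without OGE, the dehydrogenase gene DHRS2 with 6.98. With OGE 1 of 11492 had, the metalloproteinase gene MMP3 with 7.88. HSPB1 differed by 1.72 (3.29-fold) and 1.05 (2.07-fold), with both U2-OS arrays above both HOS arrays and 0.94 between the nearest of them.

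HSPB8 was higher in U2-OS by 0.91 without OGE and 0.83 with it, just under the size threshold. BAG3 differed by -0.49 and -0.11, HSPB6 by -0.28 and 0.20, HSPB3 by -0.08 and -0.35, HSPB7 by 0.14 and 0.35 and HSPB11 by 0.00 and 0.09. Of the 6 members at the floor, 2 were higher in U2-OS in both states and 0 lower, against 3.0% higher and 3.17% lower among 11069 genes. In each state alone the same 2 members were called, where 8.26% of genes were higher and 5.64% lower without OGE, and 4.89% and 6.24% with it. Nothing is read from these counts, since the contrast was part of the choice.

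**Figure D3:**
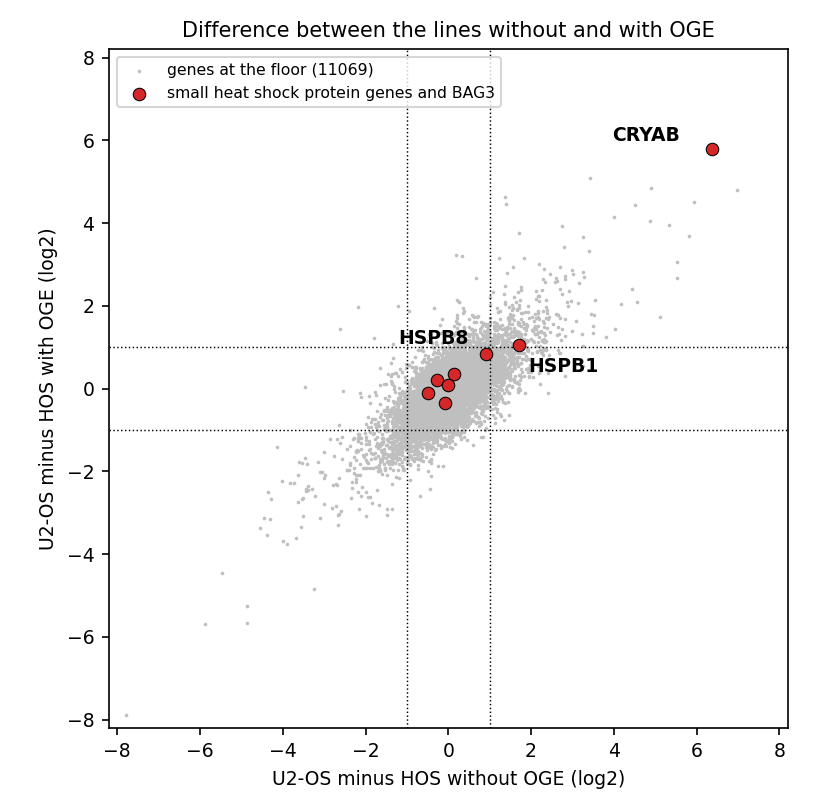
U2-OS minus HOS (log2) without OGE on the horizontal axis and with OGE on the vertical axis, with 11069 genes at the floor in grey, the 8 members in red and dotted lines at 2-fold. CRYAB lies at 6.38 and 5.79, apart from most genes, HSPB1 at 1.72 and 1.05, and HSPB8 at 0.91 and 0.83.

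In the RefSeq annotation, HSPB2, another small heat shock protein gene, lies inside the span of CRYAB. The probe set annotated to HSPB2 and its readthrough transcript HSPB2-C11orf52 was at 2.94 and 2.36 in untreated and treated HOS and at 2.96 and 3.08 in U2-OS. All 4 values were below the array medians, and the large line difference of CRYAB was not present in them. Of the other family genes, HSPB9 lay between 2.27 and 2.65 and the sperm gene ODF1 between 2.18 and 2.38. A probe set shared by the lens crystallin gene CRYAA and LOC102724652 lay between 4.88 and 5.37 and differed with OGE by -0.01 and 0.45.

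Among 12029 genes at the median on at least 1 array, the profiles most like that of each main member were found by the distance of mean-centred log2 values over the 4 arrays. Nearest to HSPB8 were the ferritin light chain gene FTL at a distance of 0.38, SNORA20 at 0.40 and ZFAND2A, a stress-induced proteasome-associated gene, at 0.46. FTL differed with OGE by 1.90 and 1.58, and ZFAND2A by 1.81 and 2.55. Nearest to BAG3 were SNORD38A at 0.10, the ribosome biogenesis gene NOB1 at 0.13 and the methyltransferase gene NTMT1 at 0.16. NOB1 differed with OGE by 0.66 and 1.28. Nearest to HSPB1 were PMS2 at 0.10, LMBRD1 at 0.12 and C1RL at 0.14. CRYAB had no close match, with RFPL4A at 0.97, IL18 at 1.25 and DHRS2 at 1.33. With 4 arrays, many genes can share a profile, and these distances are a description.

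Among the other genes of the BAG family, none of 5 was called with OGE in either line. Of all genes at the floor, 1.70% were higher and 2.18% lower in HOS, and 2.94% and 7.88% in U2-OS. BAG1 had the largest difference, 0.46 in HOS and 0.91 in U2-OS. BAG2 differed by -0.19 and -0.52, BAG5 by -0.60 and -0.38, BAG4 by 0.05 and 0.19 and BAG6 by 0.43 and -0.07. The median of the 5 was 0.05 in HOS and -0.07 in U2-OS.

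Of 16 genes listed as BAG3 partners or parts of chaperone-assisted autophagy, 11 were measured by a probe set of their own and 10 were at the floor in each line. In HOS 1 was higher and 0 lower, against 1.70% and 2.18% of all genes at the floor. In U2-OS 2 were higher and 0 lower, against 2.94% and 7.88%. SQSTM1, the receptor that carries ubiquitinated cargo to autophagosomes, was at 6.90 and 9.05 in HOS and at 7.17 and 8.80 in U2-OS, differences of 2.15 and 1.63. MAP1LC3B, an autophagosome membrane protein, differed by 0.39 and 1.00. The latter stands at the threshold, and 1 gene was called in U2-OS after quantile normalization, after cyclic loess or with arrays centred on their medians. A probe set shared by MAP1LC3B and MAP1LC3B2, outside these counts, was at 5.70 and 6.15 in HOS and 6.33 and 7.53 in U2-OS. Its differences were 0.45 and 1.20. SYNPO2, the muscle partner of BAG3, lay between 1.54 and 2.12, below the medians, and the kinase gene LATS1 differed by 0.18 and 0.53. The list's median over genes at the floor was 0.18 in HOS and -0.19 in U2-OS.

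Of 21 heat shock factors and classical targets, 16 were measured by a probe set of their own. In HOS 1 of 16 at the floor was higher and 0 lower, against 1.70% and 2.18% of all genes. In U2-OS 1 of 15 was higher and 1 lower, against 2.94% and 7.88%. The higher gene was DNAJB1, an HSP40 co-chaperone, at 7.08 and 8.46 in HOS and 8.46 and 9.81 in U2-OS, differences of 1.38 and 1.35. HSPA4, an exchange factor for HSP70, differed by -0.71 and -1.19, the mitochondrial chaperonin gene HSPD1 by -0.54 and -0.98 and HSPA4L by -0.88 and -0.40. HSPA4L was below the median on both U2-OS arrays. The list's median over genes at the floor was -0.07 in HOS and -0.48 in U2-OS. The 5 probe sets annotated to both HSPA1A and HSPA1B, the inducible HSP70 genes, were outside these counts. They differed by 2.41 to 2.45 in HOS and 1.98 to 2.30 in U2-OS. Some of them had identical values on every array, so these ranges do not show agreement of 5 separate measurements. With probe sets of several symbols taken too, 3 list genes were called in HOS and 4 in U2-OS, and among BAG3 partners likewise 3 and 4. The genes gained were HSPA1A and HSPA1B, which share their probe sets and stand in both lists. The same signal was thus counted for each gene and in each list.

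The kinase pathway that phosphorylates HSPB1 was measured through 6 of 7 listed genes, since MAPK14 had no probe set of its own. MAP2K3 differed by 0.51 and 1.22 and PRKD1 by -0.35 and -1.07, and they were the higher and the lower gene called in U2-OS. MAPKAPK3 differed by 0.49 and 0.78 and MAP2K6 by -0.15 and -0.80, and none of 4 at the floor was called in HOS. PRKD1 and MAP2K6 were below the medians on both HOS arrays. Of 9 cytoskeletal partners, none was called with OGE. VIM, the vimentin gene, differed by 0.00 and -0.69, GFAP by -0.20 and 0.69, ACTB by -0.31 and -0.56 and NES by 0.22 and -0.51. Of 15 measured genes of the IFT-B complex that HSPB11 belongs to, 9 were at the floor in HOS, where 0 were called. In U2-OS 11 were, of which 0 were higher and 2 lower. The shares of all genes for these 3 lists were 1.70% higher and 2.18% lower in HOS, and 2.94% and 7.88% in U2-OS. IFT80 differed by -0.76 and -1.43, CLUAP1 by 0.17 and -1.17, TRAF3IP1 by -0.37 and -0.77 and TTC30A, now named IFT70A, by 0.75 and -0.25. TTC30A was below the medians on every array.

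**Figure D4:**
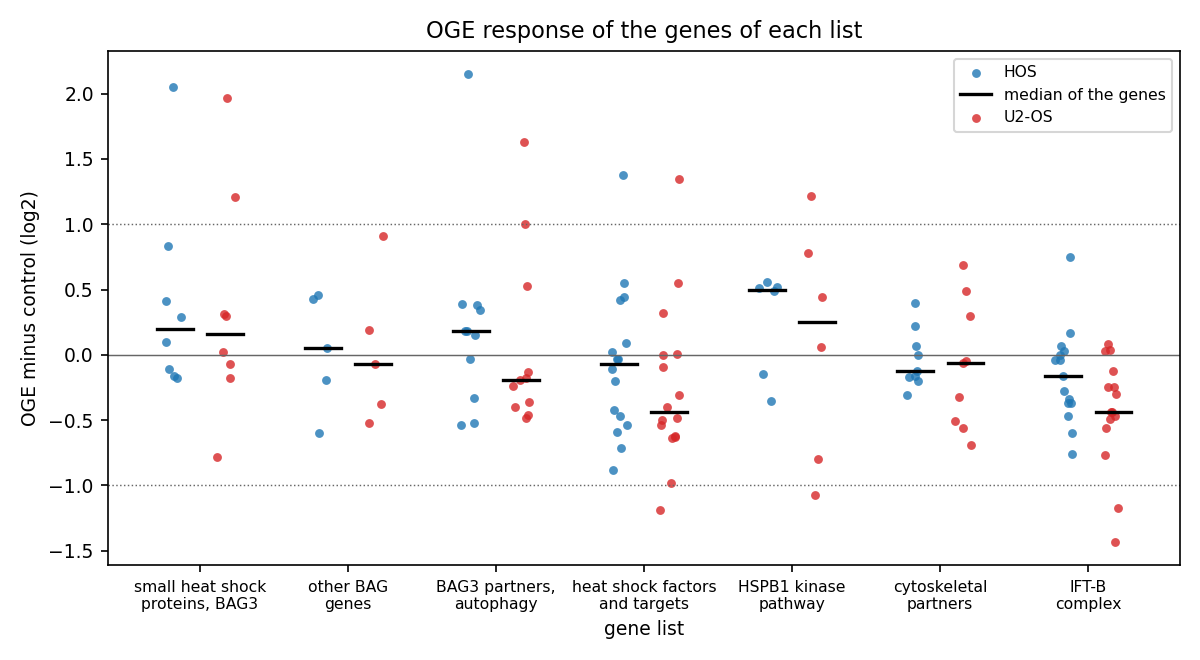
OGE minus control (log2, vertical axis) of every measured gene in 7 lists (horizontal axis), with HOS in blue, U2-OS in red, black bars at the median of the genes and dotted lines at 2-fold. HSPB8, SQSTM1 and DNAJB1 are the points past 2-fold in both lines, and the medians of all lists lie between -0.44 and 0.50.

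Osteoblast lineage genes were in part below the medians. COL1A1 was between 7.71 and 10.01, SPARC between 7.93 and 9.33 and RUNX2 between 3.94 and 4.60, whereas IBSP, SPP1 and TNFRSF11B were below the median on all arrays. COL1A2 differed with OGE by -1.25 in HOS and -0.08 in U2-OS, COL1A1 by -0.94 and -1.75 and SPARC by -0.73 and -1.40. SPP1 differed by -0.01 and 0.74. COL1A2 was called lower in HOS alone, and COL1A1 and SPARC in U2-OS alone. In each line 6 genes of that list were at the floor. Among all genes at the floor, 1.70% were higher and 2.18% lower with OGE in HOS, and 2.94% and 7.88% in U2-OS. The same shares apply to the marker lists that follow. Of the 10 measured muscle markers, TNNT1 was higher and ACTC1 lower in U2-OS in both states, as CRYAB was higher there. The muscle list was not alone in this. COL1A2 was lower in U2-OS by -4.32 without OGE and -3.15 with it, and the epithelial gene KRT8 by -1.22 and -1.37. No gene of the other marker lists was called higher in U2-OS in both states. Of all genes at the floor, 3.0% were higher and 3.17% lower in that comparison. TNNT1 was at 5.37 and 4.79 in HOS and at 7.08 and 6.32 in U2-OS. MYOD1, MYF5, CKM, MYH3 and MYH7 were below the medians on every array, whereas DES, from 4.54 to 4.71, ACTA1, from 5.71 to 6.13, and MYOG, from 3.86 to 4.18, were above them on every array. The summed level of the muscle list was 7.77 and 7.59 in HOS and 8.08 and 7.75 in U2-OS on the log2 scale. Of 5 immune markers, CD68, a lysosomal protein, was higher with OGE by 1.05 and 1.35, alongside HSPB8, and the other 4 were below the medians. The summed level of that list was 5.78 and 6.40 in HOS and 5.38 and 6.15 in U2-OS. None of 5 endothelial genes was at the median on any array, and no lens or epithelial gene was called with OGE. The part of TNNT1, CD68 and these lists in the results was not tested.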

How the data were processed

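Total RNA from HOS and U2-OS cells, with OGE at 0 or 600 μg/mL for 24 h, was labelled and hybridised to 1 single-colour array per condition. The authors deposited log2 values from RMA (no version), per the submitters' processing notes. Their range, 0.16 to 13.41, gave the log base, which the file does not name. For the probe sets, a genome build was not given in the sources used here.

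Of 33297 probe sets, 19460 carried 1 gene symbol in the platform annotation of 2016, and 19429 of these were matched by gene ID to RefSeq, GRCh38.p14. The probe set with the highest mean stood for a gene, which gave 18417 genes. The 1754 probe sets with several symbols were left out of the counts. Calls were made by size, at least 2-fold with the median floor. The code that makes them was checked on simulated arrays with known changes, which tests the code and not the calls. No replicate exists, so no p-value was computed, and the number of arrays limits the precision.

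The members and gene lists were chosen with earlier results of these data known. Named are all members, all other genes of both families, up to 4 genes per list with the largest change, and the 3 genes nearest in profile to CRYAB, HSPB1, HSPB8 and BAG3. DHRS2 and MMP3, above CRYAB between the lines, and the list genes given for their levels were named after their values were seen. Alternatives were other fold thresholds and floors, quantile normalization and cyclic loess (limma 3.58.1, R 4.3.3), the mean of probe sets, probe sets with several symbols and, chosen after seeing the data, arrays centred on their medians. Python 3.11.15, pandas 2.3.3 and matplotlib 3.10.9 were used.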

Additional observations from a re-analysis of the deposited data

Results flagged for a closer look

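CRYAB had OGE differences of opposite sign in the lines, 0.41 in HOS and -0.18 in U2-OS. HSPB6 did too, with -0.18 in HOS and 0.30 in U2-OS. Neither difference between the lines was tested, with 1 array per condition, and all 4 values were under 2-fold. Both HOS values of CRYAB were below the array medians, and the HSPB6 values lay within 0.30 of each other on all arrays.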

How the results depend on the processing

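Of 36 alternative counts of members called, 32 stayed within 1.5 times the main count. At 1.5-fold, 2 members, HSPB8 and BAG3, were called in HOS and the same 2 in both lines. HSPB1, with -0.78, was then also called lower in U2-OS, which made 3 members there, and HSPB8 was also called between the lines, likewise 3. At 3-fold, 1 member, HSPB8, was left in U2-OS and 1, CRYAB, between the lines. These shifts follow from the threshold. The calls of HSPB8 in both lines, BAG3 in U2-OS, and CRYAB and HSPB1 between the lines were kept under other scalings. These were quantile normalization, cyclic loess and median centring. With a floor at the 75th percentile the calls were kept too. Each member had 1 probe set, so the mean of probe sets gave the same values by construction. Taking probe sets with several symbols also left all member values unchanged, and dropping the floor cannot remove a call. Those settings are no check of the calls. The HSPB8 difference ranged from 2.02 to 2.05 in HOS and from 1.95 to 2.12 in U2-OS, and that of BAG3 from 0.80 to 0.83 and from 1.19 to 1.30. That of HSPB1 in U2-OS ranged from -0.80 to -0.50. Of 160 single values, 0 called ones reversed and 3 uncalled ones changed sign, those of HSPB1 in HOS and HSPB3 in U2-OS. The 160 values include the unchanged ones of both probe-set settings, and the 36 counts include these and the setting without a floor. Of 130 list counts, 123 stayed within 1.5 times and 7 moved. Under the other scalings only the count of BAG3 partners in U2-OS moved, where MAP1LC3B stood at the threshold. The remaining shifts came with probe sets of several symbols, where HSPA1A and HSPA1B were gained. No paired analysis was possible because each group holds 1 array and the labels number no replicates. A fit with line and OGE as terms, in which the lines repeat the OGE contrast, was not run for the members, whose choice used both contrasts. Leaving out a replicate was likewise not run. Signal over background cannot be read from RMA values, so low genes carry no detection call.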
